A study of Danio rerio with 8 samples.

Results

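Guidance receptors and ligands were followed in cells sorted from the injured zebrafish heart: the Roundabout, plexin, neuropilin and Eph receptors, their Slit, semaphorin and ephrin ligands, and a cytoplasmic mediator. Members were all gene identifiers of the deposited table whose symbol begins with sema, plxn, robo, slit, epha or ephb and a digit, efn, nrp, unc5, ntn or dpysl, in any case. This gave 38 of 10479 identifiers. One of them, UNC50, shares only the letters unc5 with the netrin receptors, and its product is known in Caenorhabditis elegans for the trafficking of acetylcholine receptors. The other 37 are 12 semaphorins, 9 plexins, 7 Eph receptors, 3 neuropilins, 2 Slits, 2 ephrins, robo4 and DPYSL2. No netrin and no UNC5 receptor was among the members found, so these families are not analysed here.

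The fish were adults of 6 to 9 months carrying both transgenes of the line Tg(wt1b:eGFP; mpeg1:mCherry), and all had a cryoinjury of the heart 4 days before sorting. The eGFP/mCherry double positive group (mpeg1:mCherry/wt1b:eGFP) and the mCherry single positive group (mpeg1:mCherry) had 4 libraries each, numbered 1, 2, 4 and 5. Each library came from a pool of 5 to 7 hearts, and the populations are defined by reporter activity: mpeg1 regulatory sequence drives mCherry in macrophages, and wt1b regulatory sequence drives eGFP. Libraries 1 and 2 of either group were made in batch 1, and libraries 4 and 5 in batch 2. The comparison is of mCherry positive cells with and without activity of the wt1b reporter. Lymphocyte and endothelial transcripts, given below, were also present, so neither group is taken as macrophages alone.

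Guidance molecules steer growing axons and are also used by blood vessels and leukocytes. Slits are secreted ligands of Roundabout receptors. Secreted class 3 semaphorins mostly bind a neuropilin that signals through an A-class plexin, whereas membrane-bound semaphorins bind plexins directly. Eph receptors are tyrosine kinases whose ephrin ligands are tethered to the neighbouring cell. Most of these receptors act on the actin cytoskeleton, which sets cell shape and migration.

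Values are the authors' normalized counts, a linear signal of unknown read depth that is not corrected for gene length, so levels are compared between populations and not between genes. A value under 1 may be a product of the normalization. Column totals were 868929 to 1021901 in double positive libraries and 803220 to 951137 in single positive libraries. Double positive library 1 stood apart: 42.3% of all genes and 24 of 38 members lay under 1 there, against 8 to 14 members in double positive libraries 2, 4 and 5 and 1 to 11 members in single positive libraries. The transcript of wt1b was 13.6 to 63.1 in double positive and 0.122 to 0.469 in single positive libraries. Marker lists were chosen with earlier results of these data known, so their counts are not independent support. Of 32 macrophage marker identifiers 20 passed as higher and 1 as lower in double positive cells, beside 3.88% and 2.81% of all tested genes. The summed level of these markers was 18842 to 25579 in double positive and 12910 to 18007 in single positive libraries. Without the antigen presentation genes cd74a and cd74b it was 10805 to 16000 in double positive and 3476 to 7535 in single positive libraries. The macrophage receptor gene marco had 368, 513, 945 and 698 in double positive libraries, against 92.2, 6.90, 2.08 and 10.2 in single positive libraries. The 1 marker called lower was IRF8 (limma log2 fold change -2.93, adjusted p = 0.0432). Of the 32 identifiers 6 had a log2 fold change below 0, among them csf1rb (-1.23) and MPEG1 ENSDARG00000055290 (-0.42), neither called. MPEG1 ENSDARG00000043093 was called higher (4.33), while MPEG1 ENSDARG00000078569 (0.08) and SPI1 (0.25) were not called. Lymphocyte markers (6 of 6 tested lower) summed to 59.9 to 186 in double positive and 702 to 1675 in single positive libraries, and the B lineage genes ighm, PAX5 and cd79a were under 1 in every double positive library, while ighd reached 25.1 in double positive library 1 and 3.72 in library 4.

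**Figure D1:**
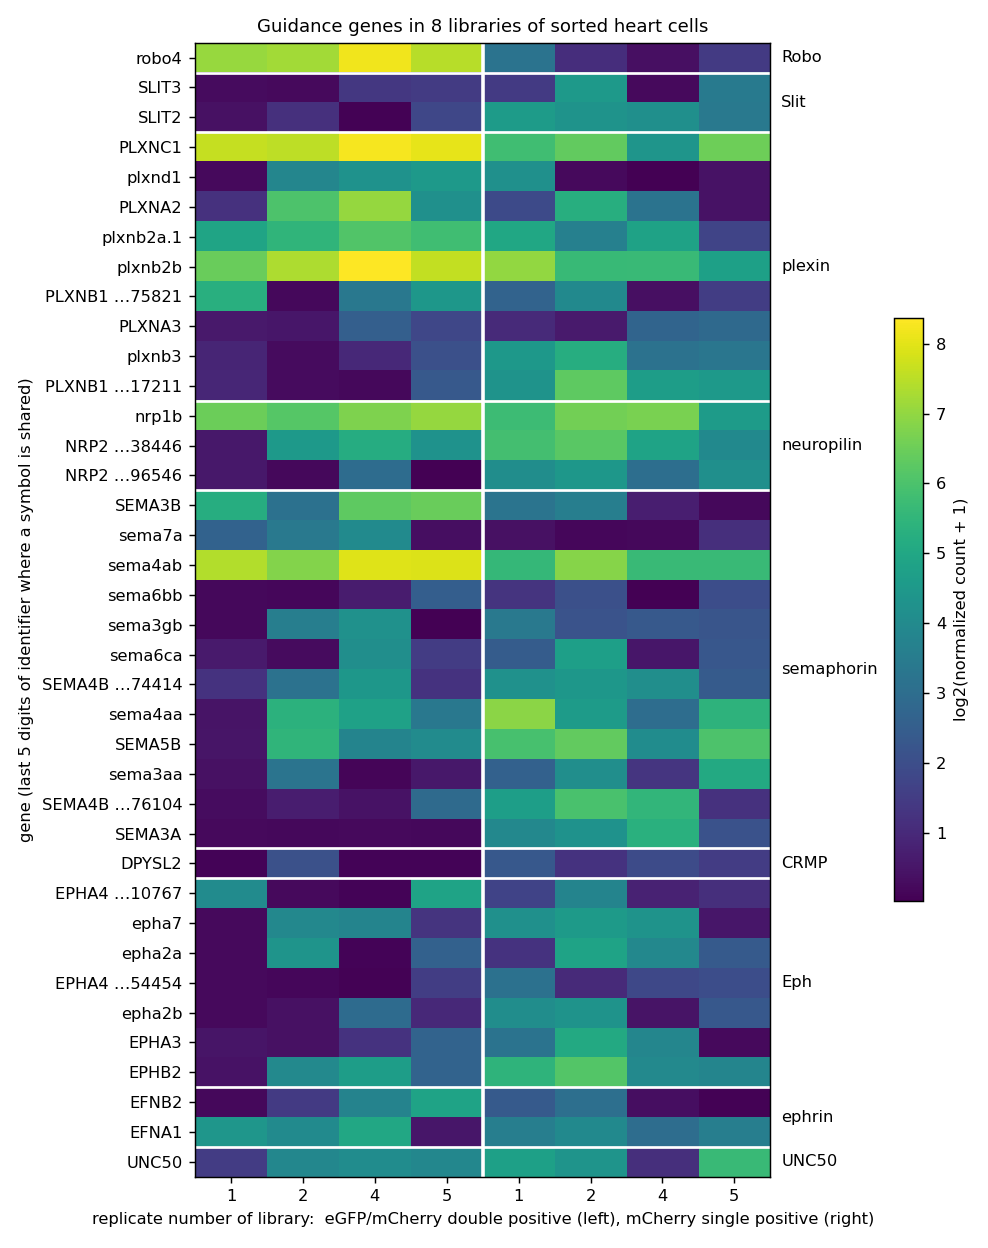
Level of the 38 members, as log2(normalized count + 1) in colour, in each of 4 double positive libraries (left) and 4 single positive libraries (right), with genes in rows by family. The robo4 row separates the populations, and PLXNC1, plxnb2b, sema4ab and nrp1b are at 10 or more in every library. Double positive library 1 is the darkest column, with 24 of 38 members under 1.

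The receptor gene robo4 was the guidance gene that differed most, and it was far higher in double positive cells. The guidance genes PLXNC1 and sema4ab were higher as well, while PLXNB1 ENSDARG00000017211 and SEMA3A were lower. All 38 members passed the filter on low values. In the test across all genes, 3 members (7.89%) passed as higher and 2 (5.26%) as lower in the double positive population at an adjusted p under 0.05 (limma on log2(value + 1), library batch as covariate, Benjamini-Hochberg over all 10127 tested genes). Over all tested genes 3.88% were called higher (393 genes) and 2.81% lower (285 genes), and 6.69% in either direction. The 38 members had a median log2 fold change of -0.98, against -0.16 for all tested genes, and 25 of them (65.8%) lay below 0, against 56.2% of all tested genes. Median centring moved these medians to -0.70 for the members and 0.12 for all genes, and the calls to 5 and 2 members and to 542 and 220 genes, higher and lower, with SEMA3B and plxnb2b added to the higher members. Without double positive library 1 the medians were -0.35 for the members and 0.01 for all genes. Within batch 1 the medians were -1.71 for the members and -0.40 for all genes, and within batch 2 they were 0.03 and 0.08. In batch 1 alone 28 of 38 members lay below 0, and in batch 2 alone 19 did, so the lower member median came from batch 1. Leaving out 1 library at a time left 2 to 4 members called higher and 0 or 1 called lower. Among the lower members 0 were left when libraries 1, 2 or 4 of the single positive group or libraries 2, 4 or 5 of the double positive group were removed, and 1 was left in the other 2 cases. Among the higher members 2 were left on removing library 4 or 5 of either group. The members higher in double positive cells shared this direction with macrophage markers (20 of 32 called higher, beside 3.88% of all tested genes). They also shared it with 4 of 13 epicardial and fibroblast markers, among them wt1b itself. The median log2 fold change of all 13 was -1.80 in batch 1 and 3.34 in batch 2. Those marker lists were chosen with earlier results of these data known, and the part of those cells in the result was not tested.

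**Figure D2:**
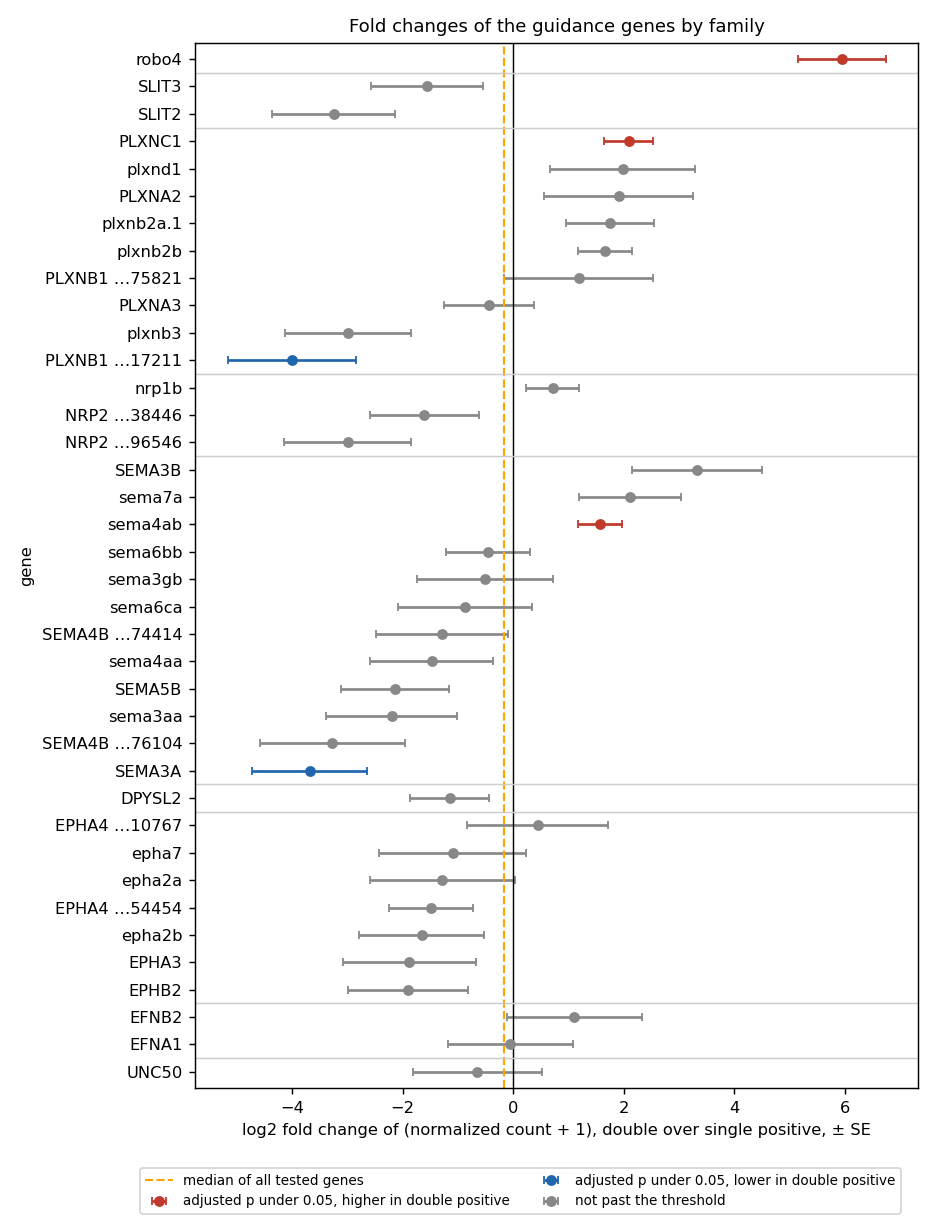
Log2 fold change of each member, double over single positive, with its standard error (bars), by family from top to bottom. Red points mark robo4, PLXNC1 and sema4ab as called higher and blue points mark PLXNB1 ENSDARG00000017211 and SEMA3A as called lower, while the dashed line is the median of all tested genes at -0.16.

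robo4 (ENSDARG00000009387) encodes a Roundabout receptor best known from vascular endothelium, where it is linked to vessel stability. It had 133, 146, 289.6 and 177 normalized counts in double positive libraries 1, 2, 4 and 5, against 8.23, 1.15, 0.293 and 1.72 in single positive libraries 1, 2, 4 and 5. Every double positive library was at least an order of magnitude above every single positive library, and single positive library 1 was the highest of its group. The means were 186 ± 71.2 in double positive and 2.85 ± 3.64 in single positive cells (SD, n = 4 each). On the log2 scale robo4 was higher by 5.95 (SE 0.79) in the fit over both batches (limma adjusted p = 0.000335). Within batch 1 the difference was 4.98 and within batch 2 it was 6.92. The call held without any single library, at log2 fold changes of 5.54 to 6.57. In batch 1 alone, where no gene was called, its adjusted p was 0.341.

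Because robo4 is an endothelial gene in many settings, endothelial markers were read beside it. Of 16 endothelial marker identifiers found, all tested, 0 were called higher (1 at an unadjusted p under 0.05, limma) and 2 lower in double positive cells, and 15 had a log2 fold change below 0 (median -2.26). Over all tested genes 3.88% were called higher and 2.81% lower, and 56.2% had a log2 fold change below 0. The summed level of the endothelial markers was 96.4 to 335 in double positive libraries and 326 to 949 in single positive libraries. The adherens junction cadherin gene cdh5, a defining endothelial marker, had 1.75, 37.6, 38.4 and 5.36 normalized counts in double positive libraries, against 89.6, 219, 52.3 and 53.5 in single positive libraries (adjusted p = 0.0581). The VEGF receptor gene KDR had 0.883, 7.74, 8.15 and 2.75 in double positive libraries, against 25.9, 74.8, 55.1 and 7.62 in single positive libraries (adjusted p = 0.176). The von Willebrand factor gene vwf averaged 14.4 ± 20.1 in double positive and 98.95 ± 31.2 in single positive cells (SD, n = 4 each), which was lower by the test (log2 fold change -3.93, SE 0.95, adjusted p = 0.0184). The vessel matrix gene mmrn2a was the other called marker (log2 fold change -4.03, adjusted p = 0.0334). Leaving out any single positive library, or double positive library 5, ended the vwf call, with adjusted p values reaching 0.0850. For mmrn2a the same single positive libraries and double positive libraries 4 and 5 did so, with values reaching 0.163. TIE1, an endothelial receptor kinase gene, went the other way with 63.8, 126, 118 and 65.4 in double positive libraries, against 32.1, 54.6, 39.2 and 25.2 in single positive libraries (log2 fold change 1.27, SE 0.47, adjusted p = 0.134). The endothelial transcription factor gene SOX7 had 0.315, 0.108, 0.0360 and 0.717 in double positive libraries, against 16.3, 23.5, 1.90 and 25.2 in single positive libraries (log2 fold change -3.40, adjusted p = 0.0648). The groups did not overlap for cdh5, vwf, mmrn2a and SOX7, with double positive libraries below, nor for TIE1, with double positive libraries above. For KDR they overlapped through single positive library 5. Over all tested genes 14.1% were separated in either direction. In bulk samples, fewer cells of a type and less RNA per cell cannot be told apart.

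**Figure D3:**
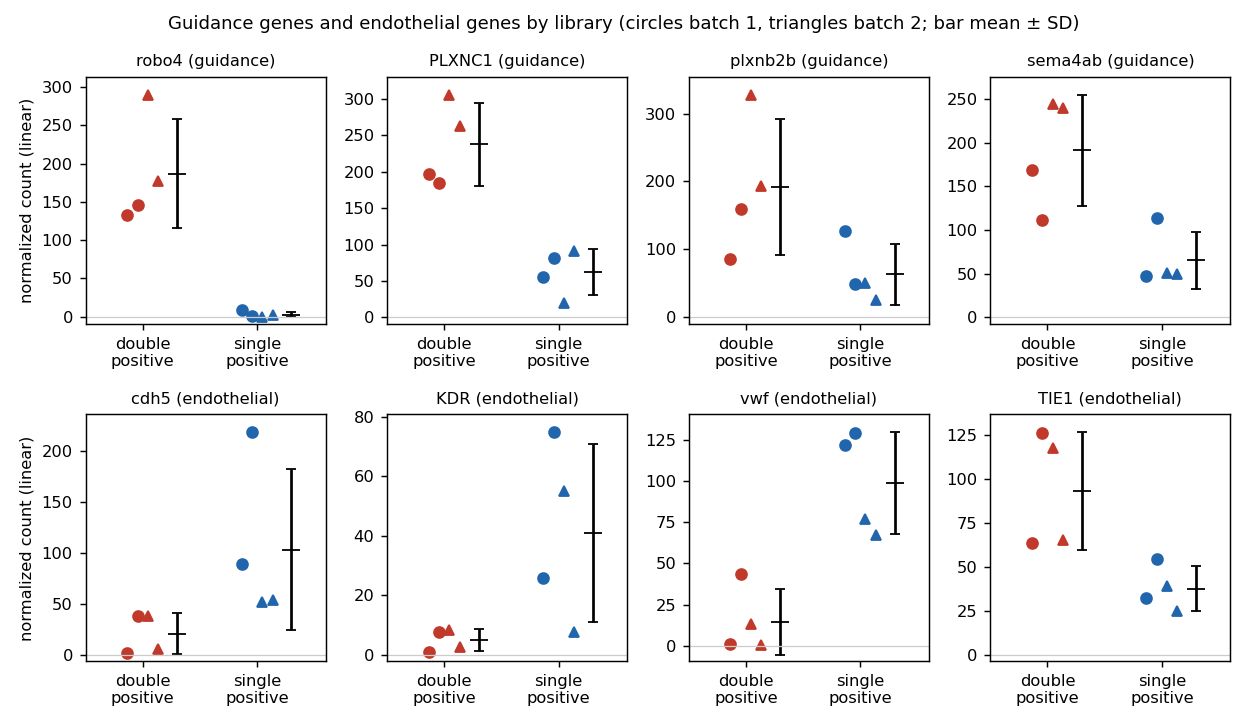
Normalized counts (linear axes) of 4 guidance genes (top row) and 4 endothelial genes (bottom row) in each double positive library (red, left) and single positive library (blue, right), with circles for batch 1, triangles for batch 2 and mean ± SD in black. The double positive libraries lie above the single positive ones for robo4, PLXNC1 and the endothelial gene TIE1. They lie below them for vwf, while for cdh5 all double positive values are at or under 38.4.

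The Slit genes, which encode secreted ligands of the Roundabout receptors as a class, had negative log2 fold changes and were not called. Binding of Slits to the robo4 product was not tested. SLIT2 had 0.335, 1.29, 0.0490 and 2.51 normalized counts in double positive libraries 1, 2, 4 and 5, against 23.2, 19.0, 17.3 and 9.50 in single positive libraries. The groups did not overlap, but the log2 fold change of -3.25 (SE 1.11) did not pass the threshold (adjusted p = 0.0964), though it did without the mean-variance trend (adjusted p = 0.0274). SLIT3 was low in both populations, at 0.947 ± 0.874 in double positive and 8.44 ± 10.005 in single positive cells (SD, n = 4 each, adjusted p = 0.442).

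Among the plexins, the semaphorin receptors, PLXNC1 was higher in double positive cells. PLXNC1 encodes a plexin of leukocytes that binds semaphorin 7A. It had 196, 185, 305 and 263 normalized counts in double positive libraries 1, 2, 4 and 5, against 55.3, 82.0, 19.8 and 91.0 in single positive libraries. The populations did not overlap, and every double positive library was at least at 185. The means were 237 ± 57.0 in double positive and 62.0 ± 31.96 in single positive cells (SD, n = 4 each), and PLXNC1 was higher by 2.09 on the log2 scale (SE 0.44, adjusted p = 0.00830). The difference was 1.48 in batch 1 and 2.70 in batch 2, and the call held without any single library (adjusted p up to 0.0497) but not without the mean-variance trend (adjusted p = 0.124). The ligand gene sema7a was low, with 5.24, 9.57, 15.3 and 0.263 in double positive libraries, against 0.326, 0.144, 0.147 and 1.21 in single positive libraries. Of these, 3 double positive libraries lay above all single positive ones and library 5 did not (log2 fold change 2.12, SE 0.93, adjusted p = 0.215).

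The B-class plexins, which include receptors of class 4 semaphorins, split by gene. PLXNB1 ENSDARG00000017211 was lower in double positive cells, with 0.885, 0.208, 0.152 and 4.12 normalized counts in double positive libraries, against 18.9, 77.6, 24.2 and 21.6 in single positive libraries. These groups did not overlap (log2 fold change -4.004, SE 1.16, adjusted p = 0.0470). The call held only without double positive library 1 (adjusted p = 0.0311) and was lost without any of the other 7 libraries (adjusted p from 0.0706 to 0.157), with a pseudocount of 0.25 (adjusted p = 0.0565) and with no filter (adjusted p = 0.0510). The second PLXNB1 identifier, ENSDARG00000075821, had 38.0, 0.150, 9.38 and 20.5 in double positive libraries, against 5.40, 14.7, 0.281 and 1.92 in single positive libraries, so the groups overlapped (log2 fold change 1.18, SE 1.35, adjusted p = 0.697). plxnb3 had 0.853, 0.207, 0.987 and 3.14 in double positive libraries, against 21.2, 36.5, 7.91 and 8.84 in single positive libraries. It did not overlap either, but missed the threshold (log2 fold change -2.99, SE 1.14, adjusted p = 0.145).

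Plexin B2, which is expressed by mouse macrophages, has a pair of genes here with positive log2 fold changes. plxnb2b had 86.6, 159.8, 327 and 194 normalized counts in double positive libraries, against 128, 49.4, 49.96 and 26.0 in single positive libraries. Double positive library 1 lay under single positive library 1, which was the one overlap between the groups. Its log2 fold change of 1.66 (SE 0.49) just missed the threshold (adjusted p = 0.0523), and it was called in the 7 libraries left after removing double positive library 1 (adjusted p = 0.00359) or after removing single positive library 1 (adjusted p = 0.0133). It was also called with median centring (adjusted p = 0.00406). plxnb2a.1 had 28.5, 43.3, 67.3 and 55.4 in double positive libraries, against 30.9, 11.8, 27.7 and 2.32 in single positive libraries (log2 fold change 1.75, SE 0.80, adjusted p = 0.236).

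The other plexins were not called. PLXNA2, of the class that signals for neuropilins, had 1.35, 63.95, 130.1 and 17.3 in double positive libraries, against 2.76, 37.3, 8.27 and 0.367 in single positive libraries. The fitted difference of 1.91 on the log2 scale (SE 1.35, adjusted p = 0.485) was 0.04 within batch 1 and 3.78 within batch 2. plxnd1, a plexin gene of developing vessels that binds semaphorin 3E, had 0.182, 13.3, 18.5 and 22.1 in double positive libraries, against 17.6, 0.196, 0.0342 and 0.353 in single positive libraries (adjusted p = 0.455). In each population library 1 was the exception. PLXNA3 stayed at or under 6.39 in all 8 libraries.

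The neuropilins, co-receptors of class 3 semaphorins and of VEGF, showed no called change. nrp1b lay at 23.3 or more in every library, with 89.0, 69.9, 107 and 132 normalized counts in double positive libraries, against 52.0, 95.6, 101 and 23.3 in single positive libraries (log2 fold change 0.71, SE 0.49, adjusted p = 0.469). NRP2 ENSDARG00000038446 had 0.480, 21.5, 35.5 and 18.2 in double positive libraries, against 58.0, 74.0, 27.9 and 14.9 in single positive libraries. Its log2 fold change of -1.61 (SE 0.99, adjusted p = 0.411) was -3.53 within batch 1 and 0.30 within batch 2. NRP2 ENSDARG00000096546 had 0.469, 0.158, 6.93 and 0.0222 in double positive libraries, against 16.2, 20.8, 7.198 and 17.1 in single positive libraries. The groups of this identifier did not overlap, by a narrow margin in batch 2 (log2 fold change -2.995, SE 1.15, adjusted p = 0.151).

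Among the semaphorin ligands 1 of 12 was called higher and 1 lower (8.33% each), beside 3.88% and 2.81% of all tested genes. sema4ab encodes a class 4 semaphorin, a membrane ligand related to mouse Sema4A of antigen presenting cells. It had 169, 111, 245 and 240.1 normalized counts in double positive libraries 1, 2, 4 and 5, against 47.2, 114, 50.4 and 50.2 in single positive libraries. Single positive library 2 stood above the other 3 of its group and just above double positive library 2, so the groups overlapped there. The means were 191 ± 63.5 in double positive and 65.4 ± 32.4 in single positive cells (SD, n = 4 each), which was higher by 1.57 on the log2 scale (SE 0.40, limma adjusted p = 0.0261). Removal of library 1, 4 or 5 of the single positive group, or of library 4 or 5 of the double positive group, ended this call, at adjusted p values of 0.0680 to 0.133. So did a fit with no mean-variance trend (adjusted p = 0.184). Its paralog sema4aa had 0.382, 40.9, 26.5 and 9.39 in double positive libraries, against 121, 23.1, 7.002 and 41.5 in single positive libraries (log2 fold change -1.48, SE 1.11, adjusted p = 0.522).

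SEMA3A, a secreted repellent of axons that signals through neuropilin 1, was the lower semaphorin. It had 0.182, 0.144, 0.188 and 0.167 normalized counts in double positive libraries, against 14.3, 18.5, 38.6 and 3.38 in single positive libraries. Every double positive value was under 1, so the fitted log2 fold change of -3.69 (SE 1.04, adjusted p = 0.0421) depends on the pseudocount and ran from -5.06 with 0.25 to -1.97 with 5, where the call was lost (adjusted p = 0.0649). SEMA3A was the only member under 1 in all 4 double positive libraries, as were 120 of the 10127 tested genes (1.18%). The call held without single positive library 5 (adjusted p = 0.0427) and was lost without any of the other 7 libraries (adjusted p from 0.0561 to 0.170). Its paralog sema3aa had 0.315, 8.43, 0.107 and 0.482 in double positive libraries, against 5.08, 16.6, 1.49 and 33.2 in single positive libraries, and was not called (log2 difference -2.20, SE 1.18, adjusted p = 0.335).

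SEMA3B, another secreted class 3 ligand, had 36.1, 7.76, 78.0 and 86.3 normalized counts in double positive libraries, against 8.49, 11.1, 0.665 and 0.166 in single positive libraries. Double positive library 2 lay within the single positive range. Its log2 fold change was 3.33 (SE 1.17, adjusted p = 0.113), made up of 0.75 in batch 1 and 5.90 in batch 2, and it was called with median centring (adjusted p = 0.0293), with quantile normalization (adjusted p = 0.0443), within batch 2 (adjusted p = 0.00819) and after removing double positive library 2 (adjusted p = 0.0296). SEMA5B, a transmembrane semaphorin with thrombospondin repeats, had 0.426, 43.4, 12.9 and 15.7 in double positive libraries, against 59.8, 80.8, 15.9 and 65.2 in single positive libraries (log2 fold change -2.14, SE 0.97, adjusted p = 0.236). Both SEMA4B identifiers had negative log2 fold changes, -1.29 for ENSDARG00000074414 (adjusted p = 0.615) and -3.28 for ENSDARG00000076104 (adjusted p = 0.174). For ENSDARG00000076104 the double positive libraries had 0.229, 0.613, 0.344 and 6.47, against 24.9, 62.3, 44.8 and 1.33 in single positive libraries, so library 5 broke the pattern in both groups. The class 6 genes sema6bb and sema6ca and the class 3 gene sema3gb were low, with means of 1.39 to 7.32 in double positive and 1.91 to 8.58 in single positive cells.

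Among the Eph receptor kinases 0 of 7 were called (0 at an unadjusted p under 0.05, limma), beside 6.69% of all tested genes. Of 7 identifiers 6 had a log2 fold change below 0, and their median was -1.49. That median was -2.32 in batch 1 and -0.07 in batch 2, and -0.86 over both without double positive library 1. EPHB2, a receptor of B-class ephrins, had 0.352, 14.4, 24.5 and 5.42 in double positive libraries, against 42.5, 68.5, 14.4 and 13.2 in single positive libraries (log2 fold change -1.90, SE 1.09, adjusted p = 0.371). EPHA3 averaged 1.89 ± 2.41 in double positive and 13.7 ± 13.9 in single positive cells (SD, n = 4 each, adjusted p = 0.437). The summed level of the 7 Eph identifiers was 17.05 to 48.5 in double positive and 26.3 to 185 in single positive libraries, which overlapped. The tethered ligands also overlapped. EFNA1 averaged 16.8 ± 13.0 in double positive and 11.01 ± 3.18 in single positive cells (adjusted p = 0.990), and EFNB2, an ephrin of arterial endothelium, averaged 10.7 ± 12.9 in double positive and 2.98 ± 3.51 in single positive cells (adjusted p = 0.685; SD, n = 4 each). DPYSL2, a cytoplasmic protein that carries semaphorin 3A signals to microtubules, lay at or under 4.05 in every library. The prefix match UNC50 had a log2 fold change of -0.65 (adjusted p = 0.8294).

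Across the 38 members, the 4 identifiers at 10 or more in every library were PLXNC1, plxnb2b, sema4ab and nrp1b, and 31 members were under 1 in at least 1 library. The double positive libraries lay wholly above the single positive ones for 2 members, robo4 and PLXNC1, and wholly below for 5, SLIT2, PLXNB1 ENSDARG00000017211, plxnb3, NRP2 ENSDARG00000096546 and SEMA3A. Over all tested genes 14.1% were separated in either direction, beside 7 of 38 members. The members lower in double positive cells shared this direction with lymphocyte and endothelial markers, whose summed levels are given above, and the part of those cells in the result was not tested. The log2 fold changes of the batches had opposite signs for 11 of 38 members (28.9%), against 41.6% of all tested genes.

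Paralogs of the same guidance gene did not always share a direction, and 8 pairs could be formed. Each pair was compared by its log2 ratio of (normalized count + 1) within a library. This comparison was chosen after the values had been seen. PLXNB1 ENSDARG00000017211 over PLXNB1 ENSDARG00000075821 had log2 ratios of -4.37 to 0.07 in double positive libraries and 1.64 to 4.30 in single positive libraries, which did not overlap. The difference was -5.19 (exact two-sided permutation test over 4 against 4 libraries, ignoring batch, p = 0.0286, the smallest p that such a test allows). Adjusted over the 8 pairs, p was 0.229, which does not pass. The difference was -4.13 in batch 1 and -6.25 in batch 2. For sema4ab over sema4aa the ratio averaged 4.01 ± 2.33 in double positive and 0.97 ± 1.86 in single positive cells (SD, n = 4 each, exact permutation p = 0.114, adjusted p = 0.4). plxnb2a.1 over plxnb2b had almost the same mean ratio in the populations, -1.87 ± 0.29 in double positive and -1.96 ± 0.90 in single positive cells (SD, n = 4 each, exact permutation p = 0.8286). The treatment of reads shared by close copies is not described, so values of near-identical paralogs are uncertain.

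**Figure D4:**
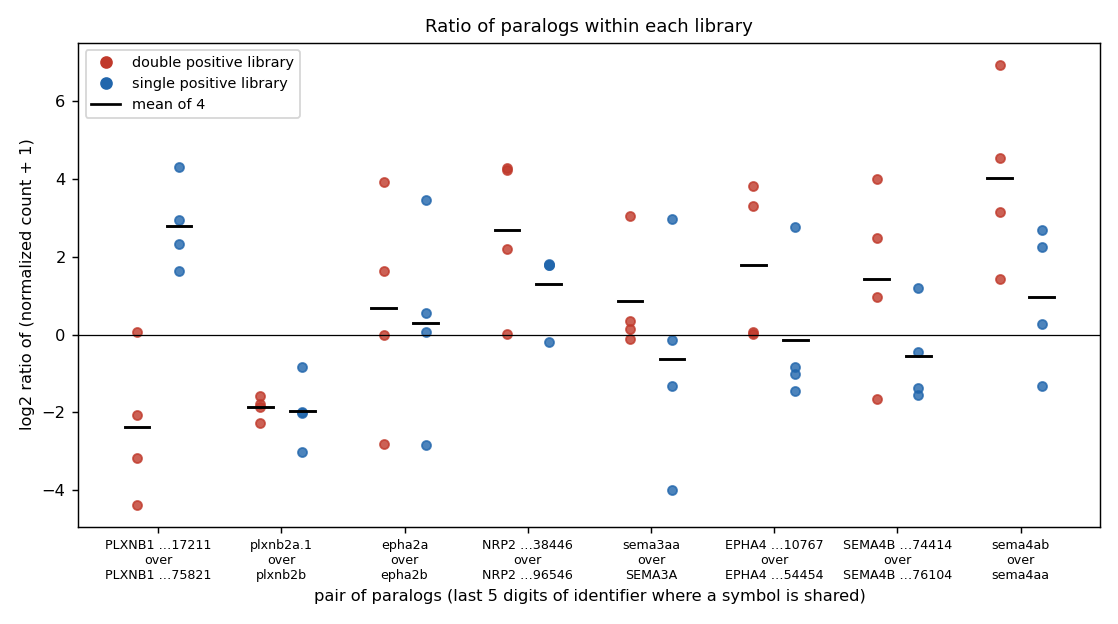
Log2 ratio of (normalized count + 1) between the paralogs of 8 pairs in each double positive library (red, left of each pair) and single positive library (blue, right), with the mean of 4 as a black bar. The populations separate for the PLXNB1 pair, with double positive ratios at or under 0.07 and single positive ratios at or above 1.64, and overlap for the other pairs.

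Genes that relay guidance signals inside the cell were read from 3 lists with 91 symbols, for which 76 identifiers were found and 75 tested. Of these 5 passed as higher in double positive cells and 2 as lower, and the median log2 fold change was 0.10. These shares are 6.67% and 2.67%, beside 3.88% and 2.81% of all tested genes. Among 35 GTPases and their regulators 3 were higher and 2 lower, among 34 tested kinases, adaptors and actin effectors 2 were higher and 0 lower, and among 6 other receptors and cues 0 were called either way. At an unadjusted p under 0.05 (limma) 7 GTPases and regulators lay higher and 5 lower. Of the kinases, adaptors and actin effectors 4 lay higher and 2 lower, and of the other receptors and cues 0 higher and 2 lower. Over all 10127 tested genes 916 lay higher and 1016 lower at that level.

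NCK1 ENSDARG00000075369 and SRGAP2B, of families with proteins that bind Roundabout or Eph receptors inside the cell, were among the pathway genes called higher. NCK1 ENSDARG00000075369, of an adaptor that links guidance receptors to actin regulators, had 233, 284, 283 and 256 normalized counts in double positive libraries, against 66.8, 110.4, 49.4 and 89.7 in single positive libraries. The groups did not overlap, the gene was higher by 1.79 on the log2 scale (SE 0.33, adjusted p = 0.00315), and the call held without any single library. The other NCK1 identifier was not called (log2 fold change 0.70, adjusted p = 0.248). SRGAP2B belongs to the Slit-Robo GTPase activating proteins and had 259, 230.4, 275 and 357 in double positive libraries, against 123, 129.6, 84.0 and 96.2 in single positive libraries. SRGAP2B was higher by 1.37 on the log2 scale (SE 0.30, adjusted p = 0.0100), and removing double positive library 5 took its adjusted p to 0.0690. With no mean-variance trend neither was called, at adjusted p values of 0.0846 for NCK1 and 0.152 for SRGAP2B. The related genes SRGAP1 (log2 fold change -1.21, adjusted p = 0.678) and SRGAP3 (1.07, adjusted p = 0.474) were not called in the main limma fit.

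The other called pathway genes named here had low values in 1 population. Except for VAV2, their calls were also lost on leaving out certain single libraries. VAV2, a guanine nucleotide exchange factor that acts below Eph receptors, fell to 3.23 ± 2.23 in double positive cells, against 102 ± 43.7 in single positive cells (SD, n = 4 each), at an adjusted p of 0.00261 and a log2 fold change of -4.70 with SE 0.85. Its call held without any single library, and also without the mean-variance trend (limma adjusted p = 0.0136). Its paralog vav3a averaged 34.7 ± 16.2 in double positive and 1.77 ± 2.41 in single positive cells (SD, n = 4 each, log2 fold change 3.90, adjusted p = 0.0466), a call that held only without double positive library 1. triob, an exchange factor gene that acts below netrin receptors, had 0.124 ± 0.0665 in double positive and 21.2 ± 7.23 in single positive cells (SD, n = 4 each, adjusted p = 0.0200), a call that ended when double positive library 4 was left out (adjusted p = 0.0978) or when library 5 was (adjusted p = 0.112). The log2 fold change of triob ran from -5.79 with a pseudocount of 0.25 to -2.31 with 5. The other Trio identifier, TRIO ENSDARG00000019426, was not called. It averaged 127.3 ± 6.80 in double positive and 199.5 ± 17.5 in single positive cells (SD, n = 4 each, log2 fold change -0.64, limma adjusted p = 0.221). mical3b, of a family of actin-oxidising enzymes that act below plexins in Drosophila, averaged 54.1 ± 23.1 in double positive and 5.57 ± 6.34 in single positive cells (SD, n = 4 each, adjusted p = 0.0428), a call kept only on removing single positive library 1 or 5. Left-out libraries took the adjusted p to as much as 0.148 for vav3a and 0.171 for mical3b. A pseudocount of 0.25 ended these calls as well, at 0.0568 for vav3a and 0.0608 for mical3b.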

How the data were processed

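RNA of 8 libraries was amplified from 1 ng of total RNA and read from a single end over 60 to 61 bases, per the labels' protocols. The submitters' processing notes list RSEM 1.2.3, CASAVA 1.8.2, cutadapt and genome build Zv9, without roles, annotation or normalization method. The authors deposited a linear signal under the name normalized counts, in 1 column for each library. No value is 0 and low values are not whole multiples of a step, so read depth is unknown and no counting interval is given. Symbols came from a table of identifiers that matched 8512 of 10479 (81.2%), and genes without a symbol could not become members. No genome or sequence table was used, so no coordinates or sequences are printed.

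A gene was tested if 4 or more libraries had at least 1 count per 1000000 of their column total (10127 genes). The fit used limma 3.58.1 in R 4.3.3 on log2(value + 1), adjusting for library batch and using a mean-variance trend, two-sided, at a Benjamini-Hochberg adjusted p under 0.05. Fold changes are double over single positive on that scale, which understates changes of low genes. If the authors adjusted the values for batch, standard errors may be too small. The labels do not tie same-numbered libraries of the populations to shared hearts. Paralog ratios were compared by exact permutation with scipy 1.17.1, without regard to batch. The fit was tried on simulated data without a batch effect, with changes planted only in genes of higher level and limited spread. That trial does not bear on members of low level. Values in every library are given for robo4, for members past the threshold and for the 12 members of highest mean; others were named after their values were seen, and 1 called pathway gene is not reported here by name. Members, gene lists and marker lists were chosen with earlier results of these data known. List symbols were matched in any case, with or without a paralog letter. Alternatives were 2 pseudocounts, no filter, 2 scalings, no batch term, a replicate block, no trend, each batch alone and each library left out.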

Additional observations from a re-analysis of the deposited data

Results flagged for a closer look

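Among 76 groups of 4 libraries (38 members in 2 populations), 12 held a library whose gap to its nearest neighbour passed Dixon's critical value for the share of the group's range on the log2(value + 1) scale. For normally distributed values chance alone flags about 1 group in 20. Of the 38 members 31 were under 1 in at least 1 library, where that rate need not hold. The rule was not run on other genes, so no share over all genes stands beside this count. In double positive cells the flagged values were the highest values of EPHA4 ENSDARG00000054454 (1.93) and SEMA4B ENSDARG00000076104 (6.47) in library 5, the highest values of sema3aa (8.43) and DPYSL2 (3.26) in library 2, and the lowest values of plxnd1 (0.182) and UNC50 (1.86) in library 1. In single positive cells they were the lowest values of epha7 (0.441) and SEMA4B ENSDARG00000074414 (4.37) in library 5, the highest values of PLXNB1 ENSDARG00000017211 (77.6) and sema4ab (114) in library 2, and the highest values of plxnd1 (17.6) and sema3gb (9.58) in library 1.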

How the results depend on the processing

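robo4 stayed called, at log2 fold changes of 4.64 (pseudocount 5) to 6.92 (batch 2 alone), under each alternative except batch 1 alone (4.98, adjusted p = 0.341). Main counts higher and lower were 393 and 285 of all genes, 3 and 2 members, and 5 and 2 pathway genes. Batch 1 alone gave 0 of each (limma, 1364 genes and 11 members at an unadjusted p under 0.05); batch 2 alone 412 and 152 genes, 5 and 0 members, and 3 and 1 pathway genes. Higher members numbered 5 with median centring and 5 with quantile normalization, lower members 1 with a pseudocount of 0.25, 1 with a pseudocount of 5 and 1 with no filter, and higher pathway genes 2 with a pseudocount of 0.25. With no trend there were 124 and 195 genes, 1 and 3 members, and 1 higher pathway gene. Over libraries left out in turn, higher and lower genes ran from 169 to 497 and from 101 to 308, members from 2 to 4 and from 0 to 1, and pathway genes from 1 to 6 and from 1 to 2.
The replicate block gave 297 and 176 genes, 2 and 0 members, and 2 and 2 pathway genes. Deviations of same-numbered libraries had correlations of -0.292 to -0.112. Differently numbered libraries of the same batch had -0.255 to -0.105, and libraries of different batches 0.094 to 0.283. These correlations follow the batch, so they cannot tell whether the numbers pair the libraries. In batch 2 alone NRP2 ENSDARG00000038446 changed sign to 0.30.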

Other observations

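Of the marker lists read beside the guidance genes, neutrophil markers had 0 of 4 tested identifiers called (limma; 1 higher at an unadjusted p under 0.05), cardiomyocyte markers 0 of 11 (1 lower at an unadjusted p under 0.05), erythrocyte and thrombocyte markers 0 of 3 and neural and glial markers 0 of 3 (0 at an unadjusted p under 0.05 in either). Epicardial and fibroblast markers had 4 of 13 called higher in double positive cells and 0 lower (0 lower at an unadjusted p under 0.05). These were wt1b itself, TAGLN, a smooth muscle actin-binding protein gene, and FN1 ENSDARG00000006526 and FN1 ENSDARG00000019815, which encode the matrix protein fibronectin. The summed level of that list ran from 747 to 3560 in double positive and from 199 to 2014 in single positive libraries, and its median log2 fold change was -1.80 in batch 1 and 3.34 in batch 2. Cardiomyocyte markers likewise had medians of -3.03 in batch 1 and 1.73 in batch 2.

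Guidance members with a negative log2 fold change in batch 1 and a positive one in batch 2 included plxnd1 (-0.20 and 4.17), EFNB2 (-1.90 and 4.11), PLXNB1 ENSDARG00000075821 (-0.58 and 2.95) and NRP2 ENSDARG00000038446 (-3.53 and 0.30). These batch differences were not tested.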
